A study of Aspergillus luchuensis with 6 samples.

Results

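Neighbouring start-site clusters on the same strand were examined in Aspergillus luchuensis mut. kawachii, the white koji mold, grown as mycelia. They were chosen by pooled tag level and by distance, measured over all 6 libraries together. The data are CAGE (cap analysis of gene expression) tags, each of which marks the capped 5′ end of an RNA. A tag cluster is a run of start positions on a scaffold strand, each with at least 0.1 CPM (counts per 1 M of all tags pooled over the 6 libraries), at most 20 bp apart. Its level is the number of all tags in its span. Clusters of at least 10 CPM pooled were kept on scaffolds whose names start with DF, without scaffold DF126582.1, which gave 7084 clusters. Neighbours on a strand whose dominant positions (those with most pooled tags) lay 100 to 1000 bp apart formed a pair. There were 1320 such pairs, 614 on the plus and 706 on the minus strand, of 6905 neighbouring couples of kept clusters at any distance. They held 2296 clusters (32.4% of those kept) on 65 of 99 scaffolds and 34.6% of all tags. Of these clusters, 344 stood in 2 pairs, downstream in one and upstream in the next, so pairs are not independent of each other.

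The pairs were compared between 3 libraries of a control strain, labelled ctrl345, and 3 of a strain with laeA deleted, labelled sirD. Each culture grew with shaking at 30 °C, for 36 h in M medium and then for 12 h in CAP medium, before total RNA was taken from the mycelia. Whether the strains share a parent, whether the disruptant is 1 clone and whether replicates were separate cultures is not given in the labels, so p-values measure the spread between these libraries only. Tags of the laeA gene were not analysed here, because the table of positions names no genes. RNA came from bulk mycelium, so fewer cells using a start site and less RNA per cell cannot be told apart.

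Many genes can be transcribed from more than 1 promoter on the same strand. The choice sets the length of the 5′ leader, and a start inside the coding region can remove the first codons. In Saccharomyces cerevisiae, the invertase gene SUC2 makes a secreted and a cytoplasmic enzyme from different start sites. LaeA is a nuclear methyltransferase-like protein that controls many secondary metabolite gene clusters of Aspergillus species. The quantity followed here is the upstream share, the percentage of a pair's tags that fell in its upstream cluster. Values of single libraries are given in the order of replicates 1, 2 and 3 of each strain. The pairs are called by their start sites, because without gene positions it was not tested whether both clusters start the same gene, start neighbouring genes or lie inside a transcript.

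The libraries held 14.8 to 19.3 M tags, and each control total exceeded each disruptant total. The excluded scaffold DF126582.1 took 11.2%, 9.42% and 17.2% of the tags of the respective controls 1, 2 and 3. It took 7.49%, 14.9% and 17.3% of those of disruptants 1, 2 and 3. Upstream against downstream tags, as a log2 ratio, did not part the libraries by strain on its leading principal component, which carried 63.7% of the variance. On the positive side lay controls 1 and 2 (15.3 and 20.5) with disruptant 1 (4.54). Control 3 (-9.92) lay on the negative side with disruptants 2 and 3 (-24.7 and -5.72). The next component, with 22.9%, placed the controls (3.27, 4.09 and 15.4) above the disruptants (-13.2, -1.29 and -8.25). The labels name no batch.

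The order of libraries on the leading component was also that of a set of very uneven pairs, those whose weak cluster lay downstream. Such pairs entered the component themselves, so the 2 orders are not separate observations. In 137 pairs the downstream cluster held under 5% of the pooled tags. Its median share there was 2.68%, 3.28% and 1.31% in the controls, and 1.97%, 0.962% and 1.52% in the disruptants. The 3 libraries with the most tags on DF126582.1 thus had the 3 lowest medians, and the strains overlapped. In the 30 pairs whose upstream cluster held under 5%, its median share was 2.16%, 2.01% and 2.18% in the controls and 2.38%, 2.57% and 2.64% in the disruptants. Here each disruptant lay above each control. The part that the scaffold's share plays in the comparisons between strains was tested only as a covariate.

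**Figure D1:**
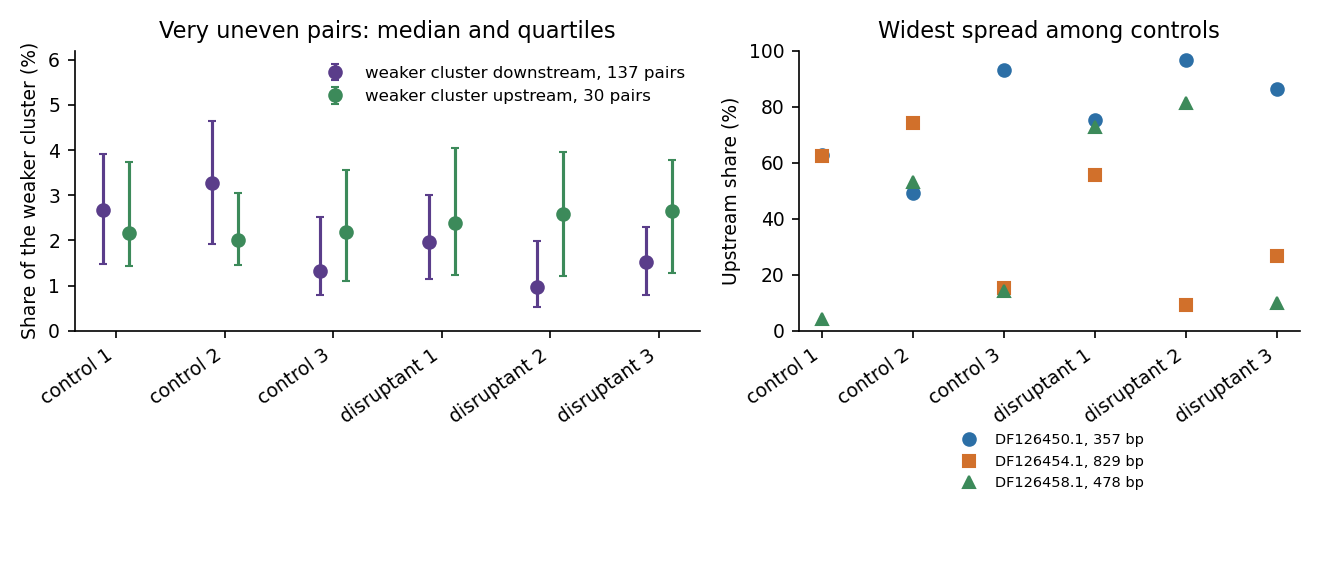
Left, the share of the weaker cluster (percent of the pair's tags) in each library for pairs whose weaker cluster held under 5% of pooled tags, as medians with quartiles over 137 pairs with a weak downstream and 30 with a weak upstream cluster. Right, the upstream share in each library of the 3 pairs with the widest range among controls. The weak downstream share was highest in control 2 (3.28%) and lowest in disruptant 2 (0.962%), while the weak upstream share stayed between 2.01% and 2.64%.

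Most pairs were close together. The distance between dominant starts had a median of 273 bp (quartiles 189 and 433 bp), and 948 pairs (71.8%) were under 400 bp. The gap between the clusters had a median of 145 bp and was at most 50 bp in 220 pairs. Tags in the gap came to a median of 1.58% of the pair's tags, and 241 pairs had more than 10% there. A weaker cluster lay between the dominant starts in 814 pairs, and a kept cluster of the opposite strand in 31 pairs (2.35%).

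The upstream cluster was the stronger one in 812 pairs (61.5%) and the downstream one in 508. Pooled over libraries, the upstream share had a median of 58.9% with quartiles of 36.6% and 83.7%, and 311 pairs lay between 40% and 60%. The stronger cluster held a median of 2.75 times the tags of the weaker, and up to 580 times. These levels helped to choose the pairs and are a description. By library, the median upstream share was 59.0%, 59.4% and 58.5% in the controls and 60.9%, 59.1% and 59.3% in the disruptants, so the strains overlapped. In 1028 pairs (77.9%) the same cluster was the stronger in all 6 libraries.

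**Figure D2:**
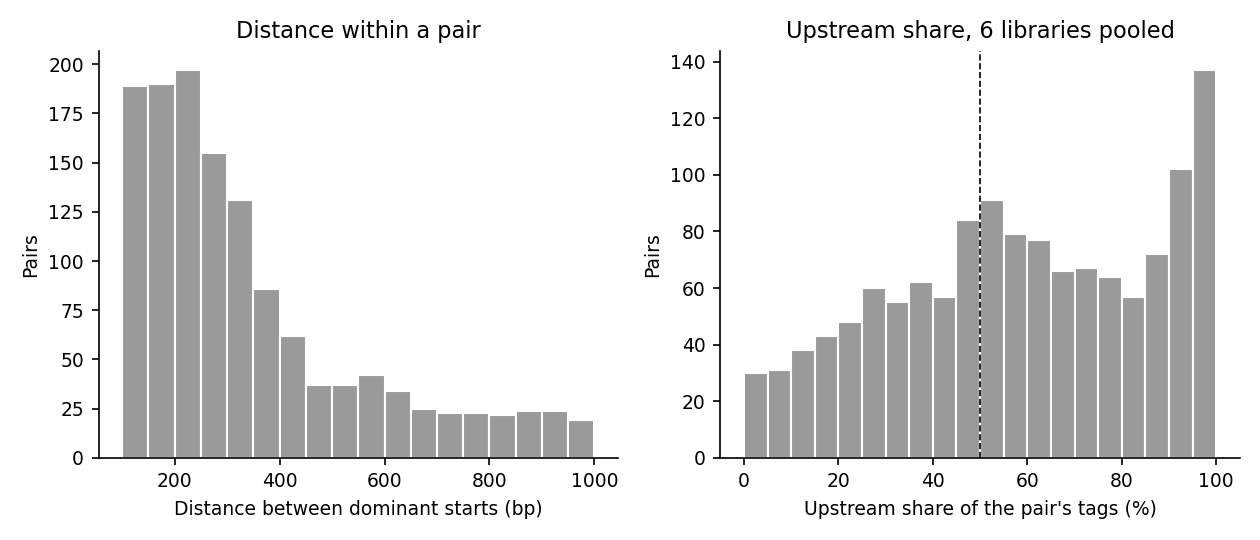
Left, the number of pairs by the distance between dominant starts in bp. Right, the number of pairs by upstream share over the 6 pooled libraries in percent, with a dashed line at 50%. The median distance was 273 bp and the median share 58.9%. The tallest column on the right holds pairs with over 95% of tags upstream.

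The partners differed in shape. The rule set no limit on shape, but its joining of positions drew the edges of the clusters. Among 976 clusters that were only a downstream partner, 148 (15.2%) were focused, with the span from 10% to 90% of their tags at most 10 bp long. Among 976 that were only an upstream partner, 37 (3.79%) were focused, and among the 4788 kept clusters in no pair 153 (3.20%). The median of this span was 53 bp in downstream partners, 44 bp in upstream partners and 40 bp in unpaired clusters. Of the 344 clusters in both roles, 48 (14.0%) were focused, and their median span was 54 bp. Levels differed too, with a median of 22.8 CPM pooled in downstream partners, 42.8 in upstream partners and 27.9 in unpaired clusters. Whether level accounts for the shapes was not tested. A kept cluster on the opposite strand lay within 500 bp upstream of 119 upstream partners (12.2%), 71 downstream partners (7.27%) and 1039 unpaired clusters (21.7%). The same position was dominant in all 6 libraries in 555 upstream partners (56.9%), 564 downstream partners (57.8%) and 2482 unpaired clusters (51.8%). These are counts over clusters of the same libraries, given with no test.

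The comparison between strains asked whether loss of laeA moves transcription from a start-site cluster to its neighbour. The upstream and downstream tags of each library were fitted together with edgeR's quasi-likelihood test, so that the overall level of a pair cancels. Of 1319 pairs with at least 10 tags in every library, 16 differed in upstream share (1.21%; Benjamini-Hochberg adjusted p under 0.05). In 9 the share was higher in the disruptant (0.682%) and in 7 lower (0.531%). At an unadjusted p under 0.05 there were 244 pairs (18.5%). In 306 of the 1320 pairs (23.2%) the shares of the 2 strains did not overlap, 202 higher (15.3%) and 104 lower (7.88%) in the disruptant, and the 16 called pairs were among them.

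The calls rest on all 6 libraries being present. Without control 2 or without control 3 only 1 of the 16 pairs was called, the pair on DF126486.1, and without control 1 or any 1 of the 3 disruptants none was. The adjusted p of the 16 pairs then ranged from 0.00562 to 0.201 (edgeR), while all 96 values kept their direction and the highest unadjusted p was 0.00339. With the DF126582.1 share as a covariate, 7 of the 16 were called and the highest adjusted p was 0.0581.

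The largest differences in percentage points were on scaffold DF126486.1 and scaffold DF126518.1, and in both pairs the stronger cluster changed. On DF126486.1, plus strand, the dominant starts at 72712 and 72908 lay 196 bp apart. Its upstream share was 26.2%, 17.2% and 35.8% in the controls and 95.7%, 97.1% and 96.1% in the disruptants. The downstream start led in each control and the upstream start in each disruptant. The means were 26.4% ± 9.27 and 96.3% ± 0.724 (SD, n = 3), a change of 6.26 in the log2 ratio of its upstream over its downstream tags (SE 0.48, edgeR adjusted p = 0.0116).

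The tag counts show which start of this pair moved. The downstream cluster held 977, 2560 and 925 tags in the controls and 6, 5 and 5 in the disruptants, and fell by 7.88 on the log2 scale (SE 0.51, edgeR adjusted p = 0.000124 over all 21803 clusters tested). The upstream cluster held 346, 533 and 515 tags in the controls and 135, 169 and 122 in the disruptants. It fell by 1.52 (SE 0.27, edgeR adjusted p = 0.0111), a call lost without disruptant 3 (adjusted p = 0.0694). The pair's tags thus fell at both starts, and the upstream start was left as the main one at a lower level.

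On DF126518.1, plus strand, the dominant starts at 28298 and 29230 lay 932 bp apart. Its upstream share was 30.9%, 16.1% and 17.8% in the controls and 69.1%, 79.8% and 80.7% in the disruptants. Here too the downstream start led in each control and the upstream start in each disruptant, but the levels went up. The upstream cluster rose from 9.02 ± 4.0 to 234 ± 75.2 CPM (SD, n = 3; CPM here and below per 1 M tags of TMM-scaled library size). The downstream cluster rose from 32.1 ± 2.51 to 67.7 ± 6.69 CPM. The log2 fold changes were 4.70 (SE 0.40, edgeR adjusted p = 0.000427) and 1.08 (SE 0.18, adjusted p = 0.00781), and the log2 ratio changed by 3.65 (SE 0.42, adjusted p = 0.0404).

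**Figure D3:**
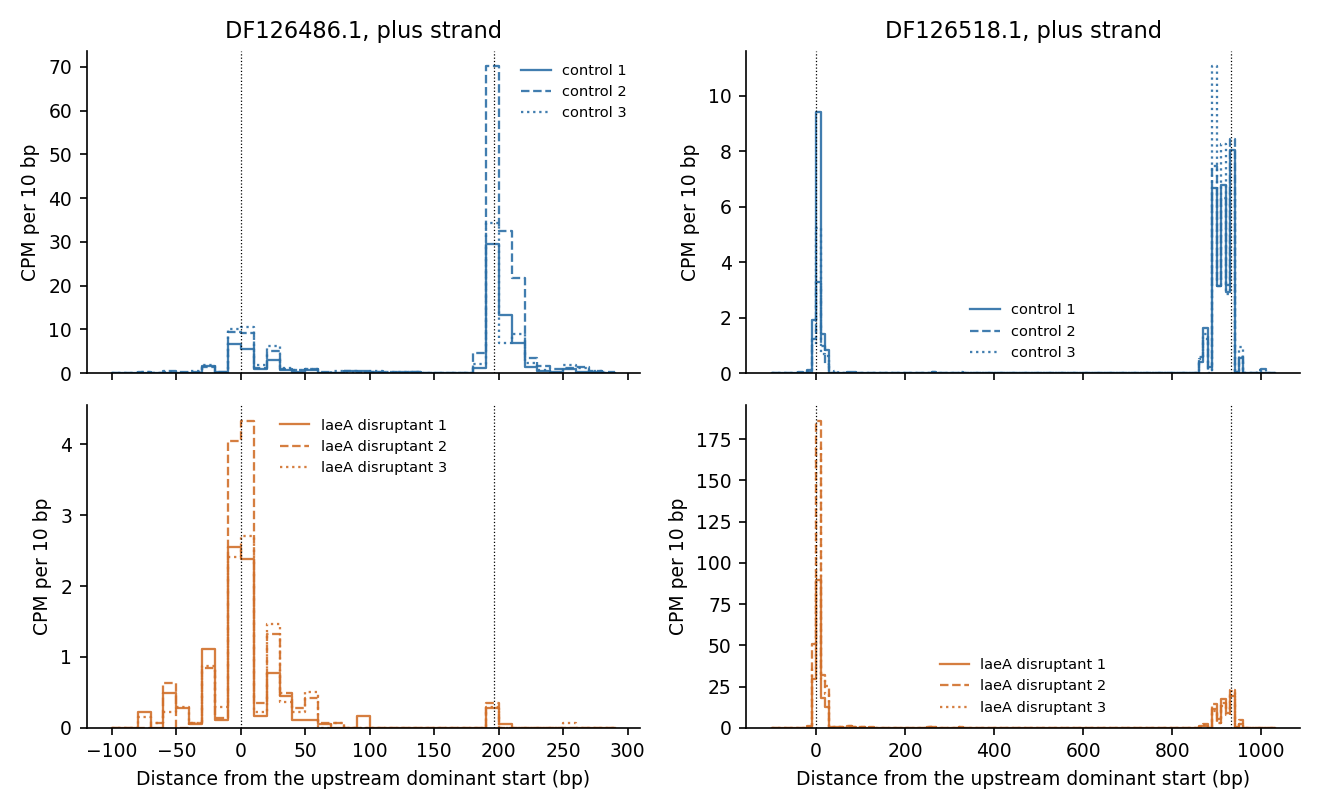
CAGE tags (CPM per 10 bp) along the pairs on DF126486.1 (left) and DF126518.1 (right), by distance from the upstream dominant start in bp, with a line per library and dotted lines at both dominant starts. Controls are above and disruptants below, each panel on its own linear axis. On the left the downstream peak of the controls is nearly gone in the disruptants (925 to 2560 against 5 or 6 tags in the whole cluster). On the right the upstream peak grows, and its whole cluster, not a 10 bp step, holds 234 ± 75.2 CPM in the disruptants.

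Other pairs changed their stronger start with a smaller difference. On DF126452.1, minus strand, starts at 814667 and 814451 lay 216 bp apart, and the upstream share was 57.3%, 69.5% and 69.98% in the controls and 26.7%, 37.6% and 33.8% in the disruptants. Each control favoured the upstream start and each disruptant the downstream start (log2 ratio change -2.004, SE 0.31, edgeR adjusted p = 0.0464). The upstream cluster fell from 28.7 ± 8.17 to 7.29 ± 0.624 CPM (SD, n = 3; edgeR adjusted p = 0.00219), and the downstream cluster held 14.9 ± 3.98 and 15.7 ± 5.16 CPM.

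On DF126465.1, minus strand, starts at 39777 and 39595 lay 182 bp apart. The upstream share was 59.2%, 63.3% and 58.2% in the controls and 37.1%, 27.9% and 35.7% in the disruptants, so the groups stood apart on opposite sides of 50% (log2 ratio change -1.59, SE 0.23, edgeR adjusted p = 0.0404). Here the downstream cluster rose, from 15.0 ± 2.91 to 36.6 ± 9.31 CPM (SD, n = 3; edgeR adjusted p = 0.0155). That call was lost without control 1 (adjusted p = 0.0704) or control 2 (0.0647). The start at 39595 was also the upstream partner of a stronger start at 39371, 224 bp further downstream. In that pair it held 9.57%, 10.7% and 10.1% of the tags in the controls and 7.84%, 7.48% and 6.63% in the disruptants. The cluster at 39371 rose from 134 ± 28.2 to 464 ± 106 CPM (SD, n = 3; edgeR adjusted p = 0.00314). The change of the stronger start thus leaves out the stronger cluster at 39371.

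On DF126451.1, plus strand, starts at 654933 and 655078 lay 145 bp apart, and the upstream share was 63.9%, 63.6% and 59.5% in the controls and 45.5%, 39.8% and 41.6% in the disruptants (log2 ratio change -1.18, SE 0.17, edgeR adjusted p = 0.0404). The upstream start again led in each control and trailed in each disruptant. Its cluster fell from 125 ± 14.8 to 59.6 ± 6.25 CPM (SD, n = 3; edgeR adjusted p = 0.00932, but 0.0678 without disruptant 3).

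A pair on DF126457.1, minus strand, went the other way. Its starts at 167014 and 166727 lay 287 bp apart, and the upstream share was 45.4%, 43.3% and 43.1% in the controls and 67.6%, 62.6% and 65.4% in the disruptants. The controls lay within 2.35 percentage points of each other, below each disruptant (log2 ratio change 1.26, SE 0.16, edgeR adjusted p = 0.0404). Neither cluster was called for level: the log2 fold changes were 0.64 upstream and -0.60 downstream (edgeR adjusted p = 0.145 and 0.243).

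A pair on DF126463.1, minus strand, with starts at 443174 and 442959, changed its stronger start as well. The upstream share was 43.2%, 47.4% and 44.4% in the controls and 63.7%, 61.0% and 61.1% in the disruptants (log2 ratio change 0.99, SE 0.15, edgeR adjusted p = 0.0404). Each disruptant lay above each control. The upstream cluster rose by 0.73 on the log2 scale (SE 0.17, edgeR adjusted p = 0.0302), a call that only the fit without control 3 kept when 1 library was left out (adjusted p from 0.0723 to 0.107 in the others).

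In 5 further pairs the upstream share rose without a change of the stronger start. On DF126469.1, minus strand, starts at 51648 and 50828, it was 72.9%, 65.8% and 75.7% in the controls and 89.3%, 92.0% and 91.2% in the disruptants. The downstream cluster of that pair fell by 1.49 on the log2 scale (SE 0.22, edgeR adjusted p = 0.00514). On DF126464.1, plus strand, starts at 167007 and 167276, the share was 89.2%, 83.0% and 89.3% against 96.1%, 95.6% and 96.0%. Again only the downstream cluster was called for level, from 44.5 ± 12.5 to 12.8 ± 1.86 CPM (SD, n = 3; edgeR adjusted p = 0.0035).

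On the minus strand of DF126464.1, starts at 239628 and 239299, the upstream share was 15.4%, 19.3% and 20.4% in the controls and 36.5%, 37.8% and 34.1% in the disruptants. The downstream cluster, the stronger in every library, fell by 0.79 (SE 0.19, edgeR adjusted p = 0.0373), but the adjusted p was 0.0530 to 0.110 in each fit that left out 1 library. On DF126453.1, minus strand, starts at 1225491 and 1225121, the upstream share was 72.1%, 67.0% and 67.7% against 82.7%, 85.7% and 84.4%. On DF126463.1, minus strand, starts at 291029 and 290281, it was 89.3%, 88.4% and 88.0% against 94.4%, 94.6% and 93.5%. In neither of these last pairs was a cluster called for level. The pair at 291029 fell outside the naming rule and is named because it completes the 16. The log2 ratio changes of these 5 pairs were 1.98, 1.75, 1.34, 1.27 and 1.06, each at an edgeR adjusted p of 0.0404.

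In 4 further pairs the upstream share fell while the stronger start stayed the same. On DF126450.1, plus strand, starts at 1432083 and 1432567, the upstream cluster held 143, 820 and 310 tags in the controls and 5, 9 and 6 in the disruptants. The downstream cluster held 3598 to 16763 tags in the 6 libraries, and the strains overlapped there. The upstream share was 2.08%, 4.66% and 7.93% in the controls and 0.0401%, 0.183% and 0.0649% in the disruptants (log2 ratio change -5.81, SE 0.75, edgeR adjusted p = 0.0404). The minor upstream start thus fell (log2 fold change -5.75, SE 0.70, edgeR adjusted p = 0.00188) beside a main start that was not called for level (0.18, adjusted p = 0.855).

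On DF126448.1, minus strand, starts at 795647 and 795511, the upstream share was 34.2%, 37.4% and 29.1% in the controls and 14.3%, 9.57% and 13.1% in the disruptants. The downstream cluster rose from 33.2 ± 14.5 to 174 ± 86.9 CPM (SD, n = 3; edgeR adjusted p = 0.0121, but 0.0612 without control 1). On DF126455.1, plus strand, starts at 612553 and 612809, the share was 91.4%, 87.8% and 91.8% against 72.6%, 77.4% and 70.8%. There too the downstream cluster rose, from 7.24 ± 1.11 to 24.8 ± 2.43 CPM (SD, n = 3; edgeR adjusted p = 0.00174), beside 69.7 ± 18.2 and 70.7 ± 18.7 CPM upstream. On DF126535.1, plus strand, starts at 23590 and 23966, the share was 43.7%, 45.8% and 46.2% against 26.9%, 29.7% and 28.0%, and the upstream cluster fell by 1.53 (SE 0.18, edgeR adjusted p = 0.00178). The log2 ratio changes of these 3 pairs were -1.86, -1.76 and -1.07, each at an adjusted p of 0.0404.

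**Figure D4:**
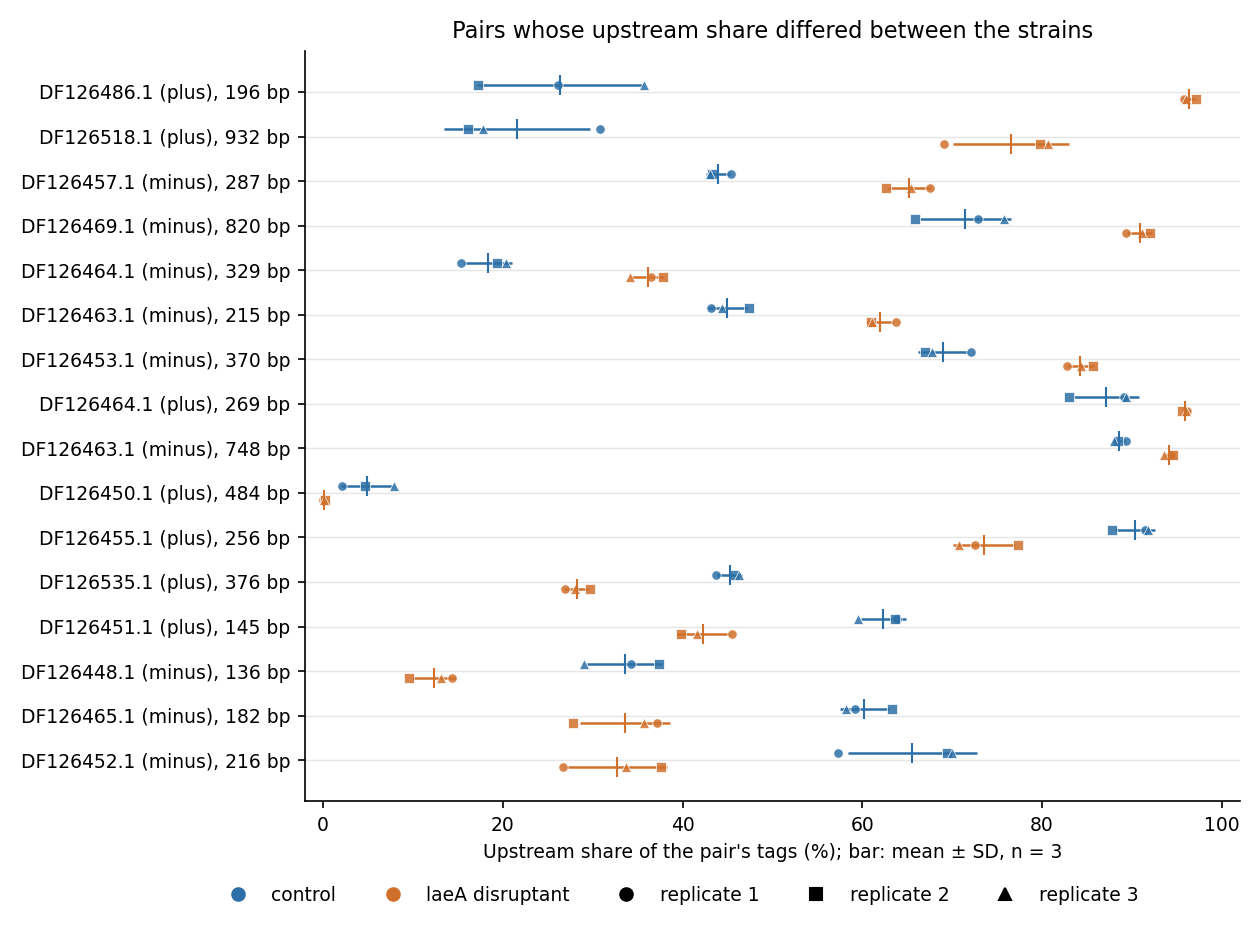
Upstream share (percent of the pair's tags) of the 16 pairs called, by scaffold, strand and distance between dominant starts, in 3 control (blue) and 3 disruptant (orange) libraries, with mean ± SD (n = 3). The strains do not overlap in any of these pairs. The top 9 lie higher in the disruptant and the lower 7 in the control, from 69.9 points higher on DF126486.1 to 32.9 points lower on DF126452.1.

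Among the 16 pairs, only the downstream cluster was called for level in 6, only the upstream cluster in 5, both in the same direction in 2 and neither in 3. In 12 of the 16 the starts were under 400 bp apart, as in 71.8% of all pairs. The absolute log2 ratio change of the called pairs had a median of 1.67, against 0.33 over all 1319 tested. Size alone did not decide the calls, since 106 of the 121 tested pairs with an absolute log2 ratio change of 1 or more were not called.

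A change of the stronger start in every library, with all 3 controls on one side of 50% and all 3 disruptants on the other, was seen in 26 pairs, 13 in each direction. Of these, 7 were called for share. The largest uncalled difference was on DF126457.1, minus strand, starts at 274045 and 273449, a pair chosen here after its values were seen. Its upstream share was 31.5%, 39.0% and 23.0% in the controls and 62.3%, 58.3% and 67.8% in the disruptants (edgeR adjusted p = 0.0576). The smallest were close to even in both strains, such as 52.8% ± 2.08 against 49.0% ± 0.39 (SD, n = 3; edgeR adjusted p = 0.475) at 758418 and 758521 on the plus strand of DF126449.1.

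The level of the clusters in pairs was then taken from a fit over all clusters of at least 1 CPM. Of 2296 clusters in pairs, 209 were called (9.1%), against 8.11% of the 21803 clusters tested and 7.44% of the 4787 tested clusters of at least 10 CPM in no pair. In pairs, 96 rose (4.18%, against 4.1% of all tested and 3.76% of the unpaired) and 113 fell (4.92%, against 4.0% and 3.68%). These shares are near the background. The median log2 fold change was -0.06 in pairs, -0.01 over all tested and 0.05 in unpaired clusters. Leaving out 1 library at a time left 68 (without disruptant 3) to 182 (without control 3) of the 209 calls, all in the same direction.

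Partners tended to carry like changes. The log2 fold changes of upstream and downstream partner correlated at r = 0.636 across the 1320 pairs, a description over pairs that share libraries and clusters, and had the same sign in 908 pairs (68.8%). In 50 pairs both partners were called with the same sign, 16 higher on 14 scaffolds and 34 lower on 18, and no pair had partners called in opposite directions. The lower pairs were not spread evenly, with 7 on DF126452.1 and 6 on DF126574.1. Those 6 are successive links of a chain described below, so the same clusters recur among the 34. Only the upstream partner was called in 75 pairs, only the downstream in 77 and neither in 1118. Of the 50 pairs in which both moved, 2 were called for share, and in 15 the shares of the strains did not overlap.

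**Figure D5:**
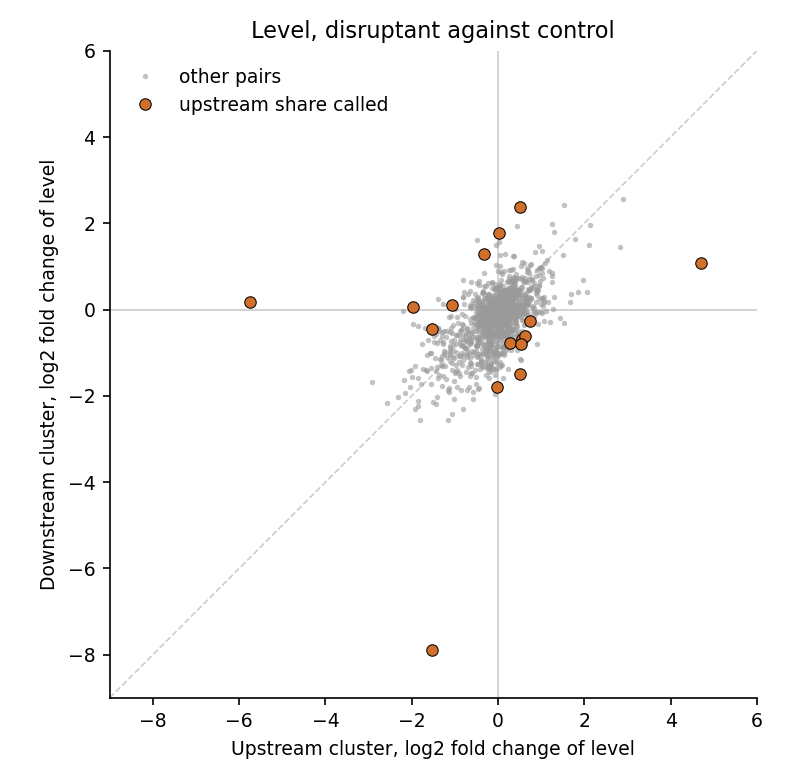
Log2 fold change of level (disruptant against control) of the downstream cluster against that of the upstream cluster of each pair, on linear axes with the diagonal dashed. Grey points are pairs not called for share, orange points the 16 called, and 1 pair beyond the axes is left out. Points tend to follow the diagonal (r = 0.636 over all 1320 pairs, with the one left out of the plot included). The called pairs lie off it by construction, since a change of share is a difference between the 2 log2 fold changes.

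A pair of examples in which both partners moved, chosen after their values were seen, had overlapping upstream shares. On DF126451.1, minus strand, starts at 432088 and 431922, the upstream cluster rose from 193 ± 58.5 to 1449 ± 415 CPM and the downstream one from 9.87 ± 3.99 to 58.1 ± 9.16 CPM (SD, n = 3). The upstream share was 94.3%, 94.1% and 96.7% in the controls and 95.5%, 96.5% and 96.1% in the disruptants. The strains overlapped (share: edgeR adjusted p = 0.624). On DF126459.1, plus strand, starts at 191634 and 191882, the stronger downstream cluster fell from 2585 ± 844 to 549 ± 124 CPM and the upstream one from 79.8 ± 27.0 to 22.2 ± 6.05 CPM. The upstream share there was 5.64%, 1.65% and 2.84% against 4.93%, 2.99% and 3.89%, again with overlap (edgeR adjusted p = 0.727).

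The only pair left out of the share test lies on DF126461.1, plus strand, with starts at 707173 and 707479. Its upstream cluster held 7278, 18494 and 16255 tags in the controls and 9, 13 and 1 in the disruptants, and its downstream cluster 238, 790 and 43 tags in the controls and 0 in each disruptant. The share in the controls was 96.8%, 95.9% and 99.7%. All tags of the disruptants fell upstream, a share of 100% in each that rests on too few tags to be read. The pair is still counted among the 306 whose shares did not overlap, and among the 15 of these in which both partners moved. The upstream cluster fell by 10.65 on the log2 scale (SE 0.70, edgeR adjusted p = 0.000135). A count of 0 allows up to 3 tags per library, or 0.166 to 0.219 CPM in the disruptants. DF126461.1 held 27 pairs, DF126449.1 74 and DF126470.1 26, and none of these was called for share.

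Pairs often joined into chains, in which each cluster was paired with the next. Of 976 groups of linked clusters, 750 were a single pair, 226 held 3 or more clusters, and 4 held 8, the most seen. On DF126449.1, minus strand, the chain began at a dominant start at 827898 that held 92.1%, 90.8% and 97.5% of the chain's tags in the controls and 94.8%, 98.2% and 96.8% in the disruptants. The 7 starts downstream of it reached to 825865 and held the rest. Of these, the cluster at 826705 fell by 1.12 on the log2 scale (edgeR adjusted p = 0.0379), a call kept without control 3 and lost in the other 5 fits that left out 1 library (adjusted p = 0.0804 to 0.134). The highest shares of the leading start were in control 3 and disruptants 2 and 3, the libraries with the most tags on DF126582.1.

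On DF126574.1, minus strand, a chain ran from 4933 to 2203. Its main start at 4240 held 87.7%, 88.3% and 89.3% of the tags in the controls and 88.2%, 93.2% and 89.1% in the disruptants, so the strains overlapped. Of its 8 clusters, 7 fell, by 1.02 (at 4240) to 2.07 (at 3814) on the log2 scale (edgeR adjusted p = 0.00196 to 0.0464), and the upstream-most at 4933 changed by -0.03 (adjusted p = 0.967). The calls at 4240, 3814 and 2953 were lost in most fits that left out 1 library. Those at 4240 went without control 1 or 2 or disruptant 1 or 3 (adjusted p = 0.0564 to 0.127), at 3814 without control 1 or 2 or disruptant 2 or 3 (0.0788 to 0.0920), and at 2953 without any 1 library (0.0660 to 0.103). The other 4 stayed called. None of the 28 pairs of the 4 chains was called for share (lowest edgeR adjusted p = 0.204).

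On DF126492.1, plus strand, the chain held 2 strong starts 1284 bp apart, at 139524 and 140808. They took 67.8%, 72.0% and 71.0% and 29.7%, 25.2% and 27.2% of the chain's tags in the controls, and 73.8%, 74.8% and 75.9% and 24.1%, 23.9% and 22.5% in the disruptants. The leading start's share was higher in each disruptant than in each control, although neither cluster was called for level (edgeR adjusted p = 0.448 and 0.164). On DF126468.1, minus strand, the main start at 87456 held 80.02%, 78.9% and 70.6% in the controls and 83.0%, 72.4% and 75.9% in the disruptants. The start at 88164 upstream of it, with 1.41% to 2.63% of the tags, was the only cluster of that chain called for level (log2 fold change 0.90, edgeR adjusted p = 0.0267). That call was kept without control 3 and lost in the other 5 fits that left out 1 library (adjusted p = 0.0663 to 0.0981).

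The pairs with most tags were dominated by 1 start. On DF126469.1, plus strand, starts at 159833 and 160086, the upstream cluster held 103017 to 264854 tags per library and the upstream share was 99.4% to 99.6%. On DF126487.1, minus strand, starts at 80055 and 79625, it was 99.6% to 99.7% in the controls and 99.8% to 99.9% in the disruptants, with no overlap (edgeR adjusted p = 0.205). A start on DF126484.1, minus strand, at 162353, stood in 2 of the 5 largest pairs. It was the downstream partner of a start at 162773 that held 0.348% to 1.08% of the tags, and the upstream partner of a start at 162111 that held the remainder of 99.7% to 99.9%. The fifth, on DF126448.1, plus strand, starts at 304599 and 304892, had an upstream share of 99.4% to 99.9%. None of these 5 was called for share.

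The share varied widely between libraries of the same strain in some pairs. The range over 3 controls had a median of 6.16 percentage points and that over 3 disruptants 5.78, while the group means differed by a median of 2.93, and in 870 pairs (65.9%) by under 5. Across pairs, the upstream shares of 2 libraries correlated at r = 0.934 to 0.981 within the controls, 0.939 to 0.980 within the disruptants and 0.884 to 0.967 between them. The widest range among controls was on DF126454.1, plus strand, starts at 629499 and 630328, with 62.5%, 74.0% and 15.3% in the controls and 55.8%, 9.09% and 26.8% in the disruptants. High values there came from controls 1 and 2 and disruptant 1, and low ones from the other 3 libraries.

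On DF126458.1, minus strand, starts at 298415 and 297937, the upstream share was 4.25%, 53.1% and 14.0% in the controls and 72.8%, 81.2% and 9.78% in the disruptants. Its downstream cluster held 8801, 359 and 2817 tags in the controls and 303, 173 and 5019 in the disruptants, so high and low libraries occurred in both strains. The upstream cluster was called for level, higher in the disruptant. That call was lost without control 1 or 2 or any 1 disruptant (edgeR adjusted p = 0.0685 to 0.124). On DF126450.1, plus strand, starts at 1077353 and 1077710, the share was 62.6%, 49.1% and 93.3% in the controls and 75.2%, 96.7% and 86.2% in the disruptants. The 3 lowest values there were again in controls 1 and 2 and disruptant 1. None of these 3 pairs was called for share (edgeR adjusted p = 0.523 to 0.615).

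At the limits of the rule, the weakest clusters kept had 10.01 CPM pooled and the strongest left out 9.997. The nearest pairs kept had their starts 100 bp apart, and the nearest left out 99 bp. The farthest kept were 991 and 999 bp apart and the next beyond 1001 and 1003 bp. Neighbouring kept clusters were under 100 bp apart in 105 cases and over 1000 bp apart in 5480.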

How the data were processed

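CAGE tags were measured in 3 control and 3 laeA disruptant libraries. The deposited file holds unscaled whole-number counts of tags at each position of each strand, for 8582186 positions, of which 61.9% were at 0 in every library. Per the submitters' processing notes, FastQC, BWA and bedtools were used; versions, genome build, mapping filters and how multiply mapped tags were handled are not given in the sources used here. Tags from repeated sequence could therefore be misplaced. Positions are on GenBank scaffolds and are given counted from 1. The gene table at hand belongs to another assembly, so no gene name or sequence was used.

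Samples were grouped by title. Libraries held 14.8 to 19.3 M tags, so 3 tags, the floor that a count of 0 allows, equal 0.162 to 0.219 CPM of the TMM-scaled sizes. Floors cover counting error only, since the labels name no molecular identifiers. The pairs were chosen on pooled tags, not on strain. Upstream and downstream counts of pairs with at least 10 tags in every library were fitted with edgeR 4.0.16 (R 4.3.3) with a term per library, a term for the part of the pair and its interaction with strain, and the quasi-likelihood F test. Levels were fitted with TMM factors and filterByExpr over 21803 clusters of at least 1 CPM. Both tests used Benjamini-Hochberg adjustment. They were tried on simulated data in which noise was drawn independently for each pair or cluster. Variation shared across pairs, as seen in these libraries, was not simulated, so the trial does not show the error rate of the tests here. CPM values use the effective library sizes. Alternatives used limma 3.58.1, DESeq2 1.42.0, other filters and pair definitions, the replicate number as a block, the DF126582.1 share as a covariate and each library left out. Replicate numbers did not pair the libraries. The pairs, tests and naming rule were chosen with earlier results of these data known.

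Pairs named are up to 8 called pairs with the largest rise and up to 8 with the largest fall of the mean share, called pairs that change their stronger start, the 5 with most tags, the longest chains, the 3 with the widest range among controls, and members at the limits. Pairs with partners called in opposite directions would also be named, and there were 0. Pairs named outside this rule are marked.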

Additional observations from a re-analysis of the deposited data

How the results depend on the processing

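Of the 16 pairs called for upstream share, each kept its direction in every alternative that gave it a value, and of 258 values recomputed for these pairs 136 stayed past the threshold and 122 did not. The number of pairs called was 15 with limma, 16 with no filter and with at least 50 tags in every library, 15 with positions joined within 50 bp, 17 with positions of at least 0.5 CPM, 13 for pairs up to 500 bp apart and 18 where the weaker cluster held at least 20%. It was also 16 when only tags of passing positions were counted, an alternative chosen after seeing the data. It was 181 with DESeq2, 8 with the DF126582.1 share as a covariate, 7 for clusters of at least 20 CPM, and 0 to 1 with 1 library left out (152 to 336 at an unadjusted p under 0.05). At an adjusted p under 0.01 edgeR called 0 pairs. Where the pair definition changed, these totals partly count other pairs. Of the 16, 12 had a value with positions joined within 50 bp, and 10 of them were called. With positions of at least 0.5 CPM 10 had a value, and for clusters of at least 20 CPM 6, all called. Where the weaker cluster held at least 20%, 10 of the 16 had a value, all called.

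Replicate numbers did not pair the libraries: deviations of same-numbered libraries correlated at 0.66, -0.63 and -0.26 for the log2 ratio and at 0.45, -0.42 and -0.08 for level. With the replicate number as a block, edgeR called 0 pairs for share (158 at an unadjusted p under 0.05) and 99 clusters for level.

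The 209 level calls in pairs were 207 with RLE factors, 208 with no filter, 296 with the covariate, 331 with DESeq2, 68 at an adjusted p under 0.01 and 70 to 280 with 1 library left out. The cause of these differences was not tested.

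With 3 libraries a strain, 106 pairs with a log2 ratio change of at least 1 were not called, which does not show that their shares were alike. Starts of weak clusters rest on few tags, and the place of multiply mapped tags is not known.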
